A study of Mus musculus with 6 samples.

Results

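The genes described here are 10 contractile genes of smooth muscle that mark the peritubular myoid cells and the vascular smooth muscle of the testis: Acta2, Actg2, Myh11, Cnn1, Tagln, Des, Myl9, Tpm2, Lmod1 and Smtn. They were chosen by gene symbol from a table of 26743 genes, and all 10 were in the table and passed the filter on low counts. RNA was taken from whole testes of 3 wild type (WT) mice and 3 Trf2-/- mice, all 21 days old, and 16924 genes were tested. Trf2, listed as Tbpl1, encodes a paralogue of the TATA-binding protein, and its loss is known to stop spermatogenesis at the round spermatid stage. The Trf2-/- mutation is not restricted to muscle cells, and whether any of these 6 mice were littermates is not given in the sources used here. The study's methods name a 129/SvPas background under its tagged Trf2 line only. CPM is used below for counts per 1000000 on library sizes scaled by TMM, a normalization of edgeR. In these units Tbpl1 had levels of 308, 283 and 294 in WT and 62.9, 64.3 and 55.8 in Trf2-/- testes (log2 fold change -2.27). The library totals ran from 21582123 to 29859347 counts in WT and from 15187062 to 24530489 counts in Trf2-/- mice.

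Peritubular myoid cells form a flat contractile sheath around each seminiferous tubule, and their contractions move fluid and released sperm toward the rete testis. As in other smooth muscle, calcium and calmodulin activate myosin light chain kinase, which phosphorylates the regulatory light chain and lets myosin pull on actin filaments, while myosin phosphatase reverses the step. Serum response factor (Srf) with myocardin or the myocardin-related factors Mkl1 and Mkl2 activates many of these genes through a DNA element called the CArG box, which has CC and GG around a run of A and T bases.

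Promoter windows from 250 bases before to 50 bases after the start site were available from RefSeq (build GRCm38.p6) for 7 of the 10 genes, and Actg2, Myh11 and Tagln had no entry in the table used. The CArG box was searched by its name's pattern on both strands. All 4 matches found in these windows are shown, and they lie in Acta2 and Myl9. Any link of the matches to level or genotype was not tested. The 10 bases of each match are in capitals.
Myl9 perfect match, 161 bases upstream, chr2:156775293-156775322, plus strand: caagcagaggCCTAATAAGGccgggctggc
Myl9 match with 1 mismatch, 99 bases upstream, chr2:156775355-156775384, plus strand: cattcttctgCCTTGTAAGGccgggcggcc
Acta2 match with 1 mismatch, 84 bases upstream, chr19:34255438-34255467, minus strand: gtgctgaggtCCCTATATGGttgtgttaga
Acta2 match with 1 mismatch, 34 bases upstream, chr19:34255388-34255417, minus strand: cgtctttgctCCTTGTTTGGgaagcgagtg

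A perfect CArG box was in 1 of the 7 promoters, against 1.63% of 32851 promoters in the table, and a match with at most 1 mismatch was in 2 of 7, against 9.98%. The windows of Cnn1, Des, Lmod1, Smtn and Tpm2 held none of these letters. TATAAA, read from 40 to 20 bases upstream of the start site, was in 0 of the 7 windows and in 1.99% of all promoters.

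Between genotypes 1 of the 10 contractile genes fell and 1 rose. Myl9, the regulatory light chain, was lower in the Trf2-/- testes, and Des, the muscle intermediate filament desmin, was higher. The other 8 did not pass the test, which was an adjusted p under 0.05 from edgeR's quasi-likelihood test with Benjamini-Hochberg adjustment over all 16924 genes and no limit on the fold. The background was high, since 31.4% of all tested genes passed in either direction, 20.2% as lower and 11.2% as higher. The median log2 fold change of the 10 genes was 0.14, against 0.04 over all tested genes, and no contractile gene passed the test with a change of at least 2-fold, which 4.9% of all tested genes did. With library size alone in place of TMM, 1 of the 10 genes was lower and 4 were higher (Cnn1, Des, Myh11 and Smtn). In that setting 6958 of the 16924 tested genes passed in either direction, and the median of all tested genes was 0.13. In whole testis RNA, fewer cells of a type and less RNA per cell cannot be told apart.

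**Figure D1:**
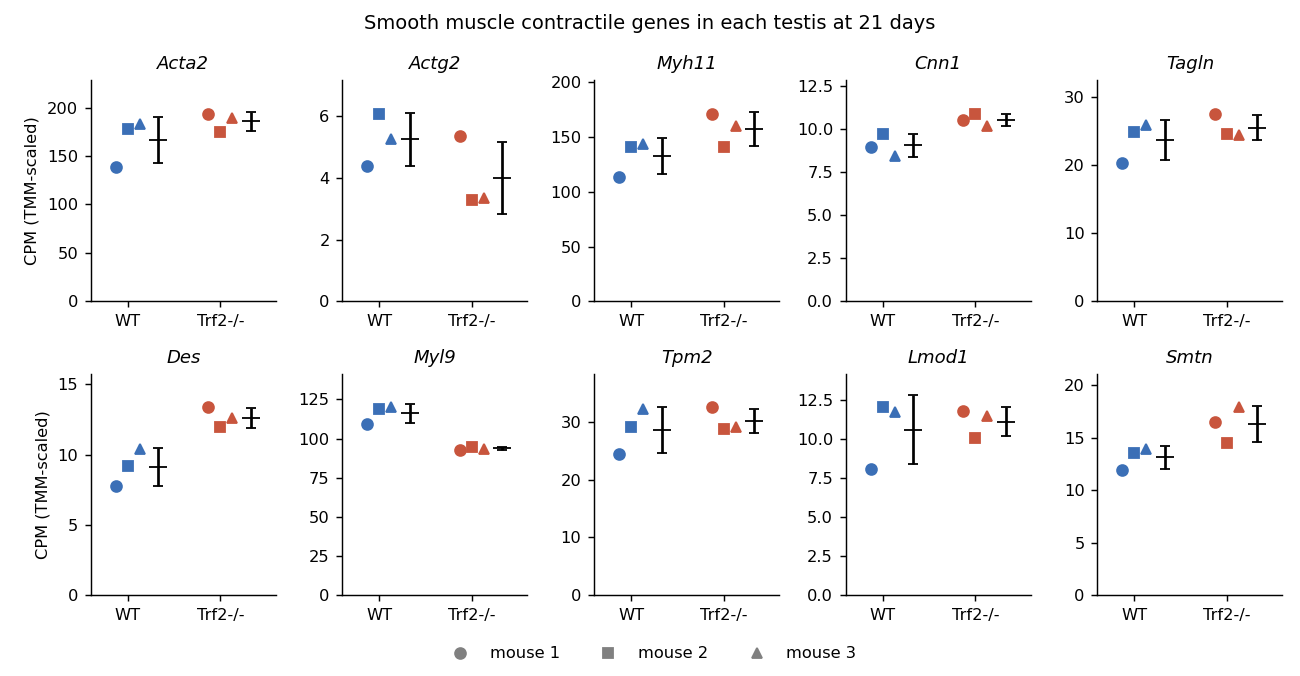
TMM-scaled CPM of the 10 contractile genes in each mouse, with WT in blue, Trf2-/- in red, a symbol for each mouse number, and black bars for the mean and SD of 3 mice. The y axes start at 0, and the 3 Trf2-/- points of Myl9 lie below the 3 WT points while those of Des, Cnn1 and Smtn lie above.

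The myosin genes came apart. Myl9 (ENSMUSG00000067818, NCBIM37 chromosome 2, 156601156 to 156607394, plus strand) was at 109, 119 and 119.9 CPM in WT and at 92.6, 94.8 and 93.5 CPM in Trf2-/- mice. All 3 mutant values lay below the lowest WT value and within a narrow band. Its log2 fold change was -0.31 (SE 0.05, edgeR adjusted p = 0.0023).

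Myh11, the smooth muscle myosin heavy chain (ENSMUSG00000018830, chromosome 16, 14194620 to 14291501, minus strand), was at 113, 141 and 144 CPM in WT and at 171, 141 and 159.7 CPM in Trf2-/- mice. Trf2-/- mouse 1 was the highest and WT mouse 1 the lowest, and the groups overlapped. The log2 fold change was 0.25 (95% interval 0.02 to 0.47, edgeR adjusted p = 0.0913). It was called with library size alone at 0.34 (edgeR adjusted p = 0.026) and with no filter beyond 1 count at 0.25 (0.0386).

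Because heavy and light chains come from the same libraries, their ratio of counts does not depend on the scaling. Myl9 to Myh11 was 0.965, 0.846 and 0.834 in WT and 0.541, 0.675 and 0.585 in Trf2-/- mice, so every mutant ratio was below every WT ratio. Myl9 to Acta2 was 0.785, 0.670 and 0.656 in WT and 0.478, 0.543 and 0.495 in Trf2-/- mice, again without overlap. Myl9 to Mylk, the myosin light chain kinase that acts on the Myl9 protein, was 0.859, 0.872 and 0.836 in WT and 0.582, 0.670 and 0.619 in Trf2-/- mice. Each ratio had a two-sided exact permutation p of 0.1, the smallest that 3 mice against 3 can give, also after adjustment over the 6 ratios computed. These 6 ratios were chosen with the values of the genes known. Those with Myl9 share its counts, which were already lower without overlap, so they are no separate support for its change.

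Among the actins, Acta2, the smooth muscle alpha actin (ENSMUSG00000035783, chromosome 19, 34315580 to 34329826, minus strand), was at 139, 178 and 183 CPM in WT and at 194, 175 and 189 CPM in Trf2-/- mice. The groups overlapped, with WT mouse 1 apart at the low end, and the log2 fold change was 0.16 (95% interval -0.06 to 0.38, edgeR adjusted p = 0.234). Actg2, the smooth muscle gamma actin of gut and bladder wall (ENSMUSG00000059430, chromosome 6, 83462899 to 83486259, minus strand), was much lower, with 126, 159 and 110 counts in WT and 135, 77 and 53 counts in Trf2-/- mice.

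As CPM, Actg2 was at 4.39, 6.09 and 5.28 in WT and at 5.36, 3.30 and 3.35 in Trf2-/- mice. Trf2-/- mouse 1 lay inside the WT range and the other two mutants below it. The log2 fold change was -0.37 (95% interval -0.87 to 0.12, edgeR adjusted p = 0.218). Without Trf2-/- mouse 1 it was -0.67 and passed the test (edgeR adjusted p = 0.0386). The ratio of Actg2 to Acta2 counts did not overlap between the groups, at 0.0316, 0.0343 and 0.0289 in WT and 0.0276, 0.0189 and 0.0177 in Trf2-/- mice. Of the 50-base windows within single exons of Acta2 0.522% had an exact copy elsewhere in the genome, of those of Actg2 0, and of those of Myh11 0.565%. Windows across exon joins and inexact copies were not scanned.

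Des encodes desmin, the intermediate filament that ties dense bodies of muscle cells together (ENSMUSG00000026208, chromosome 1, 75356904 to 75365154, plus strand). It was at 7.74, 9.19 and 10.4 CPM in WT and at 13.4, 12.0 and 12.6 CPM in Trf2-/- mice, so the lowest mutant exceeded the highest WT. The log2 fold change was 0.48 (SE 0.12, edgeR adjusted p = 0.0187). The ratio of Des to Acta2 counts was above WT in every mutant, at 0.0556, 0.0518 and 0.0569 in WT and 0.0690, 0.0685 and 0.0666 in Trf2-/- mice. This ratio shares the counts of Des, so it is no separate support for the change of Des. The call was lost with WT mouse 1, WT mouse 2 or Trf2-/- mouse 1 left out, where the log2 fold changes were 0.37, 0.48 and 0.42 and the edgeR adjusted p 0.0641, 0.0614 and 0.0638.

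The actin-binding and thin-filament genes did not pass the test. Cnn1, or calponin, which binds actin and restrains the myosin motor (ENSMUSG00000001349, chromosome 9, 21903725 to 21914074, plus strand), was at 8.96, 9.73 and 8.44 CPM in WT and at 10.5, 10.9 and 10.2 CPM in Trf2-/- mice. These groups did not overlap, but the log2 fold change was 0.22 with a 95% interval of -0.01 to 0.45 (edgeR adjusted p = 0.126). Smtn, or smoothelin, a protein of contractile smooth muscle (ENSMUSG00000020439, chromosome 11, 3417526 to 3440615, minus strand), was at 11.9, 13.5 and 14.0 CPM in WT and at 16.5, 14.5 and 17.9 CPM in Trf2-/- mice. The lowest mutant lay just above the highest WT mouse, and the log2 fold change was 0.31 (95% interval 0.07 to 0.55, edgeR adjusted p = 0.0554). Without Trf2-/- mouse 2 it was 0.38 and passed (edgeR adjusted p = 0.0363).

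Thus 3 of the 10 genes (Des, Cnn1 and Smtn) had every Trf2-/- value above every WT value, against 22.3% of all tested genes, and Myl9 was the 1 gene with every value below, against 26.8% of all tested genes.

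Tagln, or transgelin (SM22), an actin cross-linker (ENSMUSG00000032085, chromosome 9, 45737711 to 45744141, minus strand), was at 20.4, 24.9 and 26.0 CPM in WT and at 27.6, 24.7 and 24.4 CPM in Trf2-/- mice. Tpm2, the beta tropomyosin that lies along the thin filament (ENSMUSG00000028464, chromosome 4, 43527583 to 43536637, minus strand), was at 24.4, 29.2 and 32.3 CPM in WT and at 32.5, 28.8 and 29.2 CPM in Trf2-/- mice. Lmod1, or leiomodin, which nucleates actin filaments (ENSMUSG00000048096, chromosome 1, 137221384 to 137264642, plus strand), was at 8.05, 12.0 and 11.7 CPM in WT and at 11.8, 10.1 and 11.4 CPM in Trf2-/- mice. In all 3 genes the groups overlapped, WT mouse 1 was the lowest mouse, and the other WT mice lay within or near the mutant range. Their log2 fold changes were 0.11 for Tagln (95% interval -0.12 to 0.34), 0.08 for Tpm2 (-0.15 to 0.32) and 0.07 for Lmod1 (-0.29 to 0.43).

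**Figure D2:**
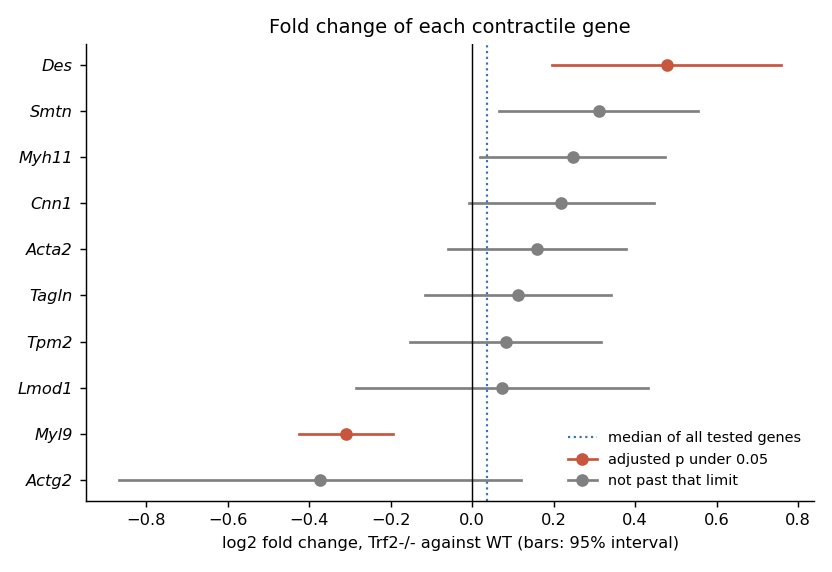
Log2 fold change of each contractile gene, Trf2-/- against WT, with its 95% interval, and the median of all tested genes as a dotted line. Myl9 at -0.31 and Des at 0.48 passed an adjusted p of 0.05, and the widest interval, that of Actg2, ran from -0.87 to 0.12.

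Some contractile genes share exons with genes on the opposite strand in GENCODE vM1. The strand setting of the counting is not given in the sources used here, so reads of such pairs cannot be assigned for certain. Des shares 220 exon bases with Gm15179, which had at most 1 count in any mouse, and Smtn shares 714 with Gm11946, which had 0 to 9 counts. Tagln shares 65 exon bases with Pcsk7, which was at 70.0, 68.6 and 65.3 CPM in WT and at 56.9, 60.6 and 57.3 CPM in Trf2-/- mice (edgeR adjusted p = 0.014). Myl9 had no overlapping gene, and no 50-base window within its exons had an exact copy elsewhere in the genome.

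Per kb of gene length, the levels spread over a wide range within the group. In WT testes Myl9 was at 99.9 ± 5.11 and Acta2 at 93.5 ± 13.4 CPM per kb (SD, n = 3), and the ranges of these 2 genes overlapped. Myh11 at 19.99 ± 2.54, Tagln at 14.97 ± 1.88 and Tpm2 at 9.83 ± 1.37 CPM per kb each lay apart from its neighbours. Below them Cnn1 at 3.82, Actg2 at 3.36, Des at 3.01, Smtn at 2.996 and Lmod1 at 2.68 CPM per kb overlapped each with the next.

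In Trf2-/- testes Acta2 led at 104 ± 5.57 CPM per kb and Myl9 followed at 80.6 ± 0.94, with no overlap between these 2 genes. Myh11, Tagln, Tpm2 and Cnn1 kept their places, at 23.7, 16.1, 10.4 and 4.45 CPM per kb. Des was next at 4.17, then Smtn at 3.72 and Lmod1 at 2.82, and Actg2 was last at 2.56 ± 0.75 CPM per kb, within the range of Lmod1. The place of Des depends on the length used, since with the GENCODE vM1 exon length, an alternative chosen after these values were seen, it was at 2.43 in WT, below Lmod1, and at 3.37 CPM per kb in Trf2-/- testes, below Smtn.

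**Figure D3:**
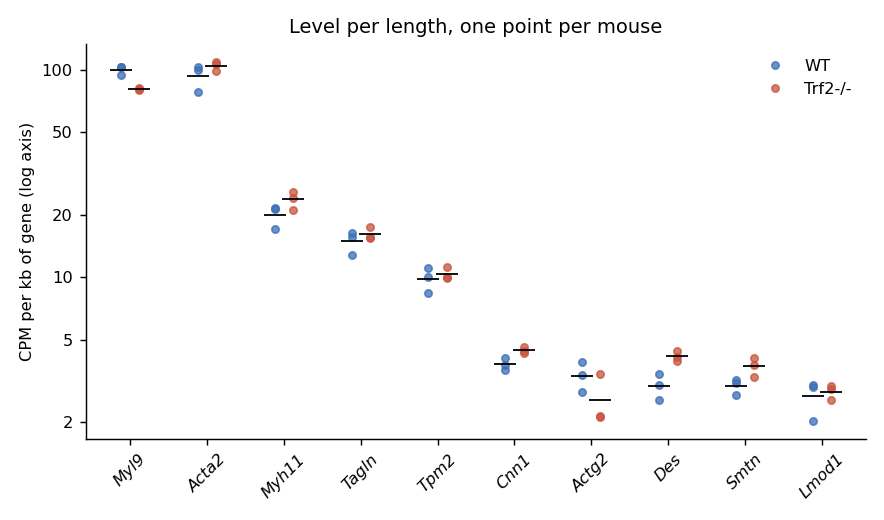
Level of each contractile gene in CPM per kb of gene length on a log axis, with a point for each mouse (WT blue, Trf2-/- red) and a black line at the mean of 3 mice. Myl9 and Acta2 stand near 100 CPM per kb, and Cnn1, Actg2, Des, Smtn and Lmod1 between 2.04 and 4.60.

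The contractile genes also differed between mice of the same genotype. Relative to the WT mean, the median log2 ratio over the 10 genes was -0.23, 0.08 and 0.12 in the WT mice and 0.22, 0.06 and 0.14 in the Trf2-/- mice. WT mouse 1 had the lowest WT value in 9 of the 10 genes and the lowest of all mice in 7. Trf2-/- mouse 1 had the highest mutant value in 7 genes and the highest of all mice in 5. The summed CPM of the 10 genes was 447, 542 and 555 in WT and 576, 514 and 551 in Trf2-/- mice.

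Genes of the epididymis and efferent ducts, which lie against the testis and have smooth muscle of their own, differed between the same mice. The summed CPM of 6 such genes was 0.383, 9.23 and 6.72 in WT and 54.0, 6.22 and 0.379 in Trf2-/- mice. The most abundant, Crisp1, a secreted sperm-binding protein of the epididymis, was at 0.07, 7.47 and 5.90 CPM in WT and at 47.0, 5.10 and 0 CPM in Trf2-/- mice. Only 2 of the 6 genes passed the filter, and neither passed the test between genotypes. The 6 mesothelial markers had sums of 20.9, 24.6 and 25.0 CPM in WT and 38.2, 22.1 and 20.04 CPM in Trf2-/- mice, and the most abundant, Lrrn4, was at 12.9, 11.3 and 13.4 CPM in WT and 13.3, 11.5 and 10.7 CPM in Trf2-/- mice. The epididymal sums were lowest in Trf2-/- mouse 3 and WT mouse 1, where Cst11 held 0.316 and 0.314 CPM of them. The contractile medians of these mice were 0.14 and -0.23. The part of attached tissue in the contractile values was not tested.

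With WT mouse 1 and Trf2-/- mouse 1 set aside, the median of the 10 log2 fold changes was -0.020, with 5 genes above 0 and 5 below. In that comparison of 2 mice against 2, chosen after these values were seen, Myl9 was lower at -0.34 (edgeR adjusted p = 0.0229) and Actg2 at -0.78 (edgeR adjusted p = 0.0378). Des was at 0.32 and Myh11 at 0.08, and neither passed the test (edgeR adjusted p = 0.135 and 0.530).

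**Figure D4:**
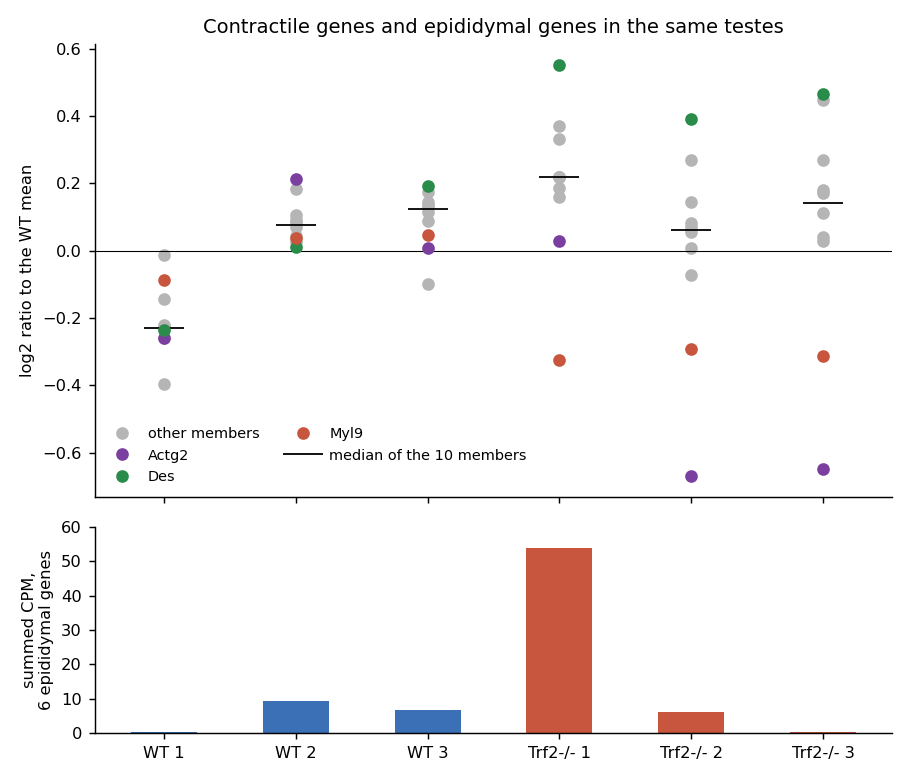
Upper panel, log2 ratio of each contractile gene to its WT mean in each mouse, with the median of the 10 genes as a black line; lower panel, summed CPM of 6 epididymal genes in the same mice. WT mouse 1 has the lowest median at -0.23 and an epididymal sum of 0.383 CPM, and Trf2-/- mouse 1 the highest median at 0.22 and a sum of 54.0 CPM, while Trf2-/- mouse 3, with a sum of 0.379 CPM, has a median of 0.14.

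Further proteins of the contractile apparatus formed a list of 20 genes, of which 18 were tested (median log2 fold change 0.23). The median was 0.12 without Trf2-/- mouse 1 and 0.079 with mice 2 and 3 of each genotype only. Of the 18 genes 0 were lower and 3 were higher, against 20.2% and 11.2% of all tested genes. The 3 were Tagln2, a transgelin found in many cell types, at 0.44 (edgeR adjusted p = 0.0383), the actin-associated PDZ-LIM protein gene Pdlim7 at 0.38 (0.0384) and Vim, the intermediate filament vimentin of mesenchymal and Sertoli cells, at 0.25 (0.0031). The call of Vim held in 12 of 13 alternatives and those of Tagln2 and Pdlim7 in 6 each, and both were lost without WT mouse 1, WT mouse 2 or Trf2-/- mouse 1. Flna, the actin cross-linker filamin A, was the most abundant at 236, 280 and 314 CPM in WT and 368, 314 and 330 CPM in Trf2-/- mice (edgeR adjusted p = 0.0575), and it was called in 4 of 13 alternatives, namely without WT mouse 3 (0.0244), with library size alone (0.0161), with no filter (0.0136) and with DESeq2's Wald test (0.0296). Mylk was at 127, 137 and 143 CPM in WT and 159, 142 and 151 CPM in Trf2-/- mice, with overlap and a log2 fold change of 0.15 (edgeR adjusted p = 0.0921).

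In the list of contraction signaling genes 0 of 12 were lower and 4 were higher (20.2% and 11.2% over all tested genes), with a median of 0.20. They included Itpr1, a calcium release channel, at 0.34 (edgeR adjusted p = 0.0017), Ppp1cb, the catalytic subunit of myosin phosphatase, at 0.24 (0.0039) and its regulatory subunit Ppp1r12b at 0.17 (0.0488). Ppp1cb was also the most abundant, at 290, 279 and 282 CPM in WT and 351, 328 and 331 CPM in Trf2-/- mice. These genes are used by many cell types of the testis, germ cells among them. The call held in 13 of 13 alternatives for Itpr1, in 12 for Ppp1cb and in 4 for Ppp1r12b, which lost it with any mouse but Trf2-/- mouse 2 left out.

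The contraction receptors held the largest change of the pathway lists. Agtr1a, the type 1a angiotensin II receptor, was at 12.0, 13.3 and 13.6 CPM in WT and at 4.32, 2.83 and 2.15 CPM in Trf2-/- mice. The groups lay far apart, and the log2 fold change was -2.02 (SE 0.21, edgeR adjusted p = 0.00044). Over 13 alternatives it ran from -2.41 to -1.84, and the call held in 13 of 13. Whole testis RNA does not tell which cells held the Agtr1a transcript.

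Of the 10 tested receptors 1 was lower and 3 were higher, against 20.2% and 11.2% of all tested genes. Avpr1a, a vasopressin receptor, was at 3.28, 3.60 and 3.65 CPM in WT and 5.95, 5.53 and 4.87 CPM in Trf2-/- mice, a log2 fold change of 0.64 (edgeR adjusted p = 0.0082). Ednra, the endothelin A receptor, was at 8.89, 8.54 and 9.21 CPM in WT and 15.8, 11.6 and 13.6 CPM in Trf2-/- mice, a log2 fold change of 0.62 (0.006), and it shares 91 exon bases with 4933431K23Rik on the opposite strand. In these receptors every mutant mouse exceeded every WT mouse. Pdgfra, the PDGF alpha receptor of mesenchymal cells, was the most abundant at 147, 138 and 119.6 CPM in WT and 185, 175 and 179 CPM in Trf2-/- mice, a log2 fold change of 0.41 (edgeR adjusted p = 0.0029).

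Among 12 transcription regulators of smooth muscle genes 1 was lower and 4 were higher, against 20.2% and 11.2% of all tested genes. The myocardin-related factors moved in opposite directions. Mkl1 was at 37.9, 37.6 and 41.3 CPM in WT and at 29.4, 30.3 and 28.3 CPM in Trf2-/- mice, a log2 fold change of -0.40 (SE 0.06, edgeR adjusted p = 0.0018). Mkl2, the most abundant of the list, was at 60.5, 59.3 and 61.4 CPM in WT and at 71.7, 68.3 and 73.7 CPM in Trf2-/- mice, a log2 fold change of 0.24 (SE 0.05, edgeR adjusted p = 0.0085). Neither Mkl1 nor Mkl2 overlapped between the groups. The ratio of Mkl1 to Mkl2 counts was 0.626, 0.634 and 0.672 in WT and 0.411, 0.443 and 0.383 in Trf2-/- mice. With both genes already apart in opposite directions, the ratio had to lie apart too and is no separate support.

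Srf itself was at 38.9, 38.1 and 37.4 CPM in WT and 32.1, 32.98 and 38.4 CPM in Trf2-/- mice, with overlap (log2 fold change -0.15, edgeR adjusted p = 0.156), and without Trf2-/- mouse 3 it was lower at -0.22 (edgeR adjusted p = 0.0156). Myocd, the myocardin gene, was low, at 2.06, 2.22 and 1.87 CPM in WT and 2.82, 1.89 and 2.72 CPM in Trf2-/- mice (edgeR adjusted p = 0.351). Tcf21 and Mef2c, factors of mesenchymal and muscle development, were each at a log2 fold change of 0.41 (edgeR adjusted p = 0.032 and 0.0106), and the other gene that was higher was Nr2f2, an orphan nuclear receptor of stromal cells, at 0.32 (edgeR adjusted p = 0.0249). Over the 13 alternatives the call held in 13 for Mkl1, in 12 for Mkl2 and Mef2c, in 8 for Nr2f2 and in 7 for Tcf21, and Nr2f2 and Tcf21 lost it with any WT mouse or with Trf2-/- mouse 1 left out.

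**Figure D5:**
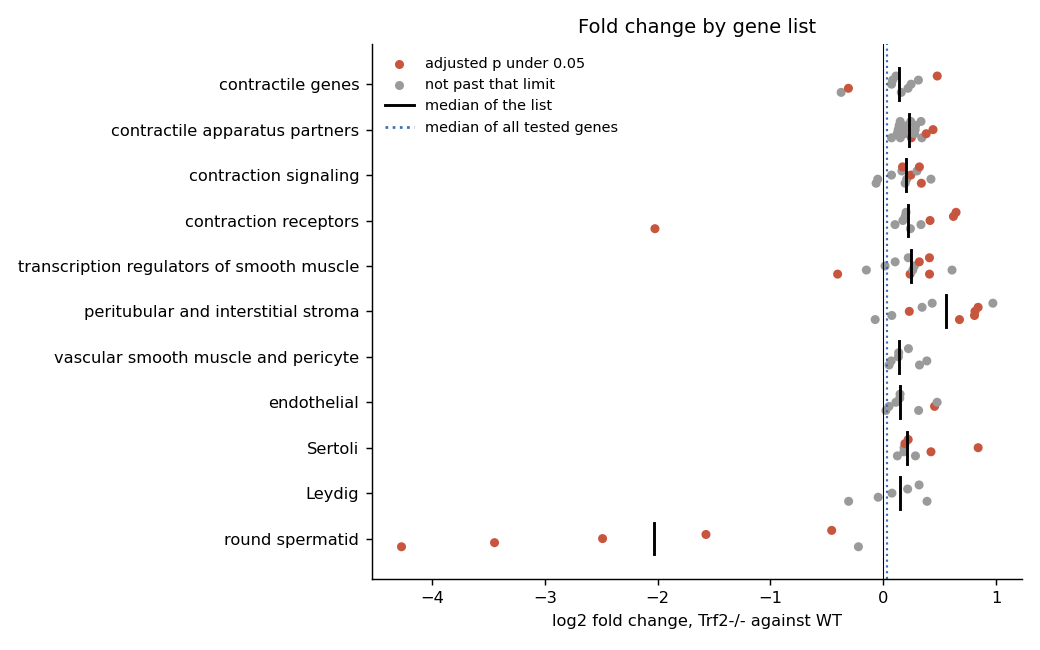
Log2 fold change of each tested gene, Trf2-/- against WT, by list, with genes past an adjusted p of 0.05 in red, others in grey, a black line at the median of the list and a dotted line at the median of all tested genes. The contractile genes have a median of 0.14, Agtr1a stands alone at -2.02 among the receptors, and the round spermatid genes have a median of -2.03. Only 2 of the round spermatid genes had at least 10 counts in every mouse.

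The contractile genes can come from peritubular or vascular smooth muscle, and the markers of other cells of the testis wall were read beside them. Of 7 markers of vascular smooth muscle and pericytes 0 passed the test (median 0.14), with sums of 88.1 to 92.5 CPM in WT and 94.9 to 100.4 CPM in Trf2-/- mice, and the most abundant, Mcam, had a log2 fold change of 0.07. Of 10 genes of peritubular and interstitial stroma 5 were higher (median 0.55), against 11.2% of all tested genes. Their sums were 310 to 370 CPM in WT and 444 to 679 CPM in Trf2-/- mice. Dpt was at 0.84, the matrix proteoglycan gene Dcn at 0.81 and Igf1 at 0.81 (edgeR adjusted p = 0.0395, 0.0247 and 0.0053). The call of Dcn was lost whichever WT mouse was left out. It was also lost with the replicate number as a block (edgeR adjusted p = 0.0515) and with DESeq2's Wald test (adjusted p = 0.0666). The call of Dpt was lost with WT mouse 1, WT mouse 2, Trf2-/- mouse 1 or Trf2-/- mouse 2 left out. Without Trf2-/- mouse 1, whose stroma sum of 679 CPM stood above the 444 and 445 CPM of the other mutants, Dcn was at 0.42 and the median of the list at 0.39. Of 10 striated muscle genes 5 were tested and 1, Actn3, was higher at 0.36 (edgeR adjusted p = 0.0161, but not without WT mouse 3, Trf2-/- mouse 1 or Trf2-/- mouse 2), while the striated actins Acta1 and Actc1 stood at 0 to 0.34 CPM in the 6 mice.

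The remaining markers were read as RNA levels, which do not tell cell number from RNA per cell. Over all tested genes 20.2% were called lower and 11.2% higher. Medians were 0.21 over 8 tested Sertoli genes (4 higher, with Amh at 0.84), 0.15 over 8 endothelial genes (1 higher, Cdh5 at 0.45), 0.15 over 6 Leydig genes (0 called), -0.28 over 5 erythroid genes (0 called), 1.001 over 4 adipose genes (0 called) and -0.02 over 6 spermatocyte genes (2 lower, 2 higher). With each mouse left out the adipose median ran from 0.091 (without Trf2-/- mouse 2) to 1.66, the Leydig median from -0.005 (without Trf2-/- mouse 2) to 0.27, and the erythroid median from -0.42 to -0.004 (without WT mouse 1). Macrophage genes had a median of 0.69 (4 of 6 higher, with Lyz2 at 1.36), or of 0.42 without Trf2-/- mouse 1 (Lyz2 at 0.67), with sums of 161 to 184 CPM in WT and 184 to 362 CPM in Trf2-/- mice. The call of Lyz2 was lost without WT mouse 1, 2 or 3 (edgeR adjusted p = 0.0631, 0.0744 and 0.0641). Round spermatid genes had a median of -2.03 (5 of 6 lower, with Acrv1 at -4.27). Acrv1 had 33, 41 and 24 counts in WT and 1, 3 and 0 counts in Trf2-/- mice. Only 2 of these genes had at least 10 counts in every mouse, and in that refit their median was -0.35. The part of these cells in the contractile values was not tested.

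The genes whose profile over the 6 mice lay nearest to the mean profile of the contractile genes, by root mean square difference of centred log2 CPM, were Bag2 (0.029), Wdr76 (0.03), Nfkb2 (0.033), Cenpi (0.037) and Cnn2 (0.039). Cnn2, a calponin of non-muscle cells, was at 15.96, 20.1 and 21.0 CPM in WT and at 22.9, 19.5 and 20.7 CPM in Trf2-/- mice, with WT mouse 1 lowest and Trf2-/- mouse 1 highest. None of the 5 passed the test (edgeR adjusted p from 0.326 to 0.571).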

How the data were processed

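The authors made the 6 libraries from total RNA of mouse testes with a stranded, rRNA-depleted kit and read them as single-end 50 base reads. Per the submitters' notes, CASAVA 1.8.2, TopHat2 2.0.10, Bowtie2 2.1.0 and HTSeq 0.5.4p3 were used with build mm9, and DESeq2 1.0.19 for normalization. The deposited table holds raw counts per gene, which were the values used here. Its 12 columns of normalized values per sample, and the columns of the authors' comparison (fold changes, p-values), were not used. Replicates are independent biological samples per the study's methods, and each is called a mouse here. The number of testes per library is not given in the sources used here.

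The counts were tested with edgeR 4.0.16 in R 4.3.3 (filterByExpr, TMM, quasi-likelihood test), WT against Trf2-/- with no covariate. Standard errors are the log2 fold change over the root of F. The study's methods used DESeq2, run here (1.42.0) as an alternative. Other alternatives changed the scaling, filter, threshold and mice. Scripts were tested on simulated data. Gene positions and exons are from GENCODE vM1 on NCBIM37, whose coordinates match the table for the 10 genes. Lengths are those of the table, and for Des the table gives 3028 bases against 3754 in GENCODE vM1. Samples of the same number did not deviate together, which does not settle whether the mice were paired.

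The members and gene lists were chosen with earlier results of these data known. Named genes were the 10 members, Tbpl1, Srf, Myocd, Mkl1, Mkl2, Mylk, the most abundant gene and up to 3 called genes with the largest change of each list, and the 5 nearest profiles, of which not all marker genes are printed and 1 contraction signaling gene is not reported here. A few more were named after their values were seen, among them Ppp1r12b, Nr2f2, Acta1, Actc1 and overlapping genes.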

Additional observations from a re-analysis of the deposited data

How the results depend on the processing

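Of the 10 contractile genes Myl9 kept its direction and its call in 13 of 13 refits (log2 fold change -0.35 to -0.21, edgeR or DESeq2 adjusted p from 6.3e-05 to 0.0229). The count of called genes was 2 (Des and Myl9). It was 5 with library size alone in place of TMM, where Cnn1, Myh11 and Smtn were added. In that setting 6958 of 16924 tested genes were called, against 5312 with TMM. The median of the contractile genes was then 0.23 and the median of all tested genes was 0.13 in place of 0.04. The count of called contractile genes was 3 with no filter beyond 1 count, where Myh11 was added and 5515 of 26743 genes were called. It was 1 at an adjusted p under 0.01 and 0 with a 2-fold limit, which 4.9% of all tested genes passed. With each mouse left out the count ran from 1 to 3 and the median from 0.025 to 0.19, with Myl9 alone without WT mouse 1 or WT mouse 2. Over all genes these refits called from 3413 of 17220 (without WT mouse 1) to 5235 of 17309 (without Trf2-/- mouse 3). Where an arm then held 2 mice the spread was pooled over the mice left. Over these refits the log2 fold change of Lmod1 ran from -0.098 to 0.18 and that of Tpm2 from -0.025 to 0.17, below 0 without WT mouse 1. With mice 2 and 3 of each genotype only, chosen after seeing the data, those of Lmod1, Tpm2 and Tagln were -0.15, -0.083 and -0.051 and the median was -0.020. The cause was not tested. With the replicate number as a block the same 2 genes were called and the median was 0.14. Deviations of samples with the same number from their genotype mean had correlations of -0.06, -0.08 and -0.08, against 0.012 to 0.054 for other pairs. Such values from 3 mice per genotype cannot tell whether the mice were paired or shared a batch. With the GENCODE vM1 exon length 7 of the 10 genes kept their rank of level per length in WT, and Des, Smtn and Lmod1 did not. Actg2, with 53 to 159 counts, had the widest interval, and without Trf2-/- mouse 1 it was called.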
